A study of Mus musculus with 32 samples.

Results

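Of the 1006 X-linked genes with a row in any of 4 tables of allelic expression, 4 encode proteins of the cytosolic ribosome, and these were described by their rows Rps4x, Rpl10, Rpl36a and Rpl39 in every table. Rps4x encodes a protein of the small ribosomal subunit, and Rpl10, Rpl36a and Rpl39 encode proteins of the large subunit. The members were chosen by name, and 3 of the 4 had levels that could be compared. Rpl39 was listed at 0 on both alleles in all 12 groups, as were 450 of the 953 genes present in all tables. A listed 0 may be a failed estimate, so it is not read as absence of Rpl39 RNA.

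The data came from XEN cells, extraembryonic endoderm stem cells of the mouse, of the cross 129S1/SvImj X JF1/Ms, whose strain differences let reads be assigned to the active X (Xa) and the inactive X (Xi). The 32 samples fell into 12 groups, and all were polyadenylated RNA made into Smart-seq2 libraries. The untreated groups were WT (3 samples), XistpA (4), XRR KO (2 samples, 1 from each of 2 clones), XRRa KO (3), XRRb XaKO (2), XRRb XiKO (2), XRRc XaKO (2) and XRRc XiKO (2). Cells with a Rad21 degron were treated with DMSO (4 samples) or dTAG (4), each from 2 clones, and cells with a Ctcf degron with DMSO (2) or dTAG (2) for 48 h. The labels do not say what XistpA, XRR, XRRa, XRRb and XRRc stand for, nor how long the Rad21 cells were treated. A degron is a tag through which a small molecule such as dTAG triggers destruction of the tagged protein. Rad21 is a subunit of cohesin, and Ctcf is the DNA-binding protein at which cohesin is held. Markers of extraembryonic endoderm lie on autosomes and were not analysed here.

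Each group had 1 deposited FPKM value per gene and allele, merged over its samples. There was therefore no spread between samples, no test could be made, and the read depth behind a value is unknown. Levels were compared within a table. Across tables, the Xi share (Xi FPKM as a percent of Xa plus Xi FPKM) and other ratios within 1 group were set side by side. A change is the difference of log2(FPKM + 0.5) between groups, and a gene is said to have risen or fallen only where that difference was 1 or more. On bulk RNA, a higher Xi level from more cells using the allele and from more RNA per cell cannot be told apart.

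Ribosomal proteins are needed together to build each ribosome, and their mRNAs are among the most abundant in growing cells. X inactivation silences most genes of one X in female cells, while genes that escape it are also transcribed from Xi. Human RPS4X is a known escape gene with a partner on the human Y chromosome, whereas mouse Rps4x has no Y partner and is known as a gene that is subject to X inactivation. Ribosomal protein genes have also left many processed copies elsewhere in the genome, and reads from a copy that matches the parent cannot be told from those of the parent.

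The coding sequences are shown because they set how far a read can be placed in the X-linked gene and not in a copy. For each member the opening 120 coding bases are given 5′ to 3′ (GENCODE M21 transcripts, GRCm38), each followed by copies on another chromosome, in which capitals mark bases that differ from the member.
Rps4x: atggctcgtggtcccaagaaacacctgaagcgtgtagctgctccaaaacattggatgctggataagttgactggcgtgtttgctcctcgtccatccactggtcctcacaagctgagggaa
Gm13680: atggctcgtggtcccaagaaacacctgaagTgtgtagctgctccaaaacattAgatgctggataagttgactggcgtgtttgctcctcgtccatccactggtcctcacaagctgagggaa
Rps4l: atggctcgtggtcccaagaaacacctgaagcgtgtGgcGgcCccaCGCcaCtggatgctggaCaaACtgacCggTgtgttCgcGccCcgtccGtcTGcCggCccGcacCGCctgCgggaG
Rpl10: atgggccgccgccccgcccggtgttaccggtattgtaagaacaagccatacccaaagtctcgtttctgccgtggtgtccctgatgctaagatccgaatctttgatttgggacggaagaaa
Rpl10-ps3: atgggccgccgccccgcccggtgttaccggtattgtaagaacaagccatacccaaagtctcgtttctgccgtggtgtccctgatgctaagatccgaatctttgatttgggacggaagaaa
Rpl36a: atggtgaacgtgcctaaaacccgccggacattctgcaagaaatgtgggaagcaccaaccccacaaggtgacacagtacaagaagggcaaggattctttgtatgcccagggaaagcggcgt
Rpl36a-ps1: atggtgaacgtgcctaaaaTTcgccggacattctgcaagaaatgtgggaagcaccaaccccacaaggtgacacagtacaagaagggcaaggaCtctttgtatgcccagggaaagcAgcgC
Rpl39: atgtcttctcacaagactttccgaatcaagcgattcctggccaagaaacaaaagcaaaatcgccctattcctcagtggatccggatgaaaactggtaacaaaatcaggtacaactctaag
Gm19366: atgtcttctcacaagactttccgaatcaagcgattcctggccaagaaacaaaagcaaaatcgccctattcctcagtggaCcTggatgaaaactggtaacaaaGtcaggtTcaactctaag

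Over its whole coding sequence, Rps4x had no identical copy. Of its 789 coding bases, the closest copy, the processed pseudogene Gm13680 on chromosome 2, matched 98.6%. Gm13680 had 11 mismatched bases and a longest identical run of 136 bases. A longer identical run, of 185 bases, was shared with the processed pseudogene Gm9616 on chromosome 13, so reads within such runs cannot be placed by sequence. There were 5 copies of Rps4x at 95% identity or more, and Rps4l on chromosome 6 matched 79.6%. Rpl10 stood at the other end. Its 642 coding bases occurred unchanged in 2 copies, Rpl10-ps1 on chromosome 2 and Rpl10-ps3 on chromosome 9, and 9 copies reached 95%. The 318 coding bases of Rpl36a occurred unchanged in 1 copy, Rpl36a-ps2 on chromosome 3, and 6 copies reached 95%, including Rpl36a-ps1 on chromosome 14 at 97.8%. Rpl39, with 153 coding bases, had 4 copies at 95% or more and none identical, the closest being Gm12013 on chromosome 11 at 98.7%. Near-identical copies were uncommon among the X-linked genes searched. By another measure, 95% identity over at least 50% of the transcript, 10 of 304 genes had a copy. By that measure Rpl10 had 9 copies, Rps4x 6, Rpl36a 6 and Rpl39 0. Read by sequence alone, Rpl10 and Rpl36a are therefore the members whose counting is most uncertain, and the handling of reads that match several places is not stated by the labels or processing notes. The snoRNA gene Snora70 also lies within Rpl10 on the same strand, over 137 bases, as Snora69 does within Rpl39 over 131 bases.

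On Xa, Rpl10 was the most abundant member and the most abundant X-linked gene in every group. Rpl10 encodes the protein that joins the large subunit late in its assembly. Its Xa level was 2387 FPKM in WT, 2097 in XistpA, 1548 in XRR KO and 2299 in XRRa KO. It was 2119.6 in XRRb XaKO, 2119 in XRRb XiKO, 2159 in XRRc XaKO and 1960.25 in XRRc XiKO. It was 1202 and 922 FPKM in the Rad21 degron cells with DMSO and dTAG, and 1177 and 1186 in the Ctcf degron cells. Within the WT table the XRR KO value was the lowest, and in the XRRb and XRRc table the 4 groups lay close together.

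Rps4x was second on Xa in every group. Its Xa level was 1639 FPKM in WT, 1506 in XistpA, 1205 in XRR KO and 1514 in XRRa KO. It was 1304 in XRRb XaKO, 1411 in XRRb XiKO, 1419 in XRRc XaKO and 1327 in XRRc XiKO. It was 851 and 736 FPKM with DMSO and dTAG in the Rad21 degron cells, and 663 and 653 in the Ctcf degron cells. The order of the groups of the WT table was that of Rpl10, with WT highest and XRR KO lowest.

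Rpl36a, whose protein sits near the exit site for spent tRNA, ranked 3 on Xa in 10 groups and 4 in XRRb XaKO and in the Ctcf degron cells with dTAG. Its Xa level was 752 FPKM in WT, 716 in XistpA, 544 in XRR KO and 739 in XRRa KO. It was 606 in XRRb XaKO, 654 in XRRb XiKO, 708 in XRRc XaKO and 647 in XRRc XiKO. It was 493 and 471 FPKM with DMSO and dTAG in the Rad21 degron cells, and 639 and 412 in the Ctcf degron cells. In the WT table XRR KO was the lowest, and in the Ctcf table the dTAG value lay well below the DMSO value.

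Together the 3 genes made up between 27.7% (Ctcf degron with dTAG) and 34.3% (WT and Ctcf degron with DMSO) of all Xa FPKM. Their proportions to one another were not fixed. The Xa ratio of Rpl36a to Rpl10 was 0.315 in WT and between 0.286 and 0.351 in the 8 untreated groups. It was 0.411 and 0.511 in the Rad21 degron cells with DMSO and dTAG, and 0.542 and 0.347 in the Ctcf degron cells. The Xa ratio of Rps4x to Rpl10 ranged from 0.551 to 0.799 over the 12 groups.

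**Figure D1:**
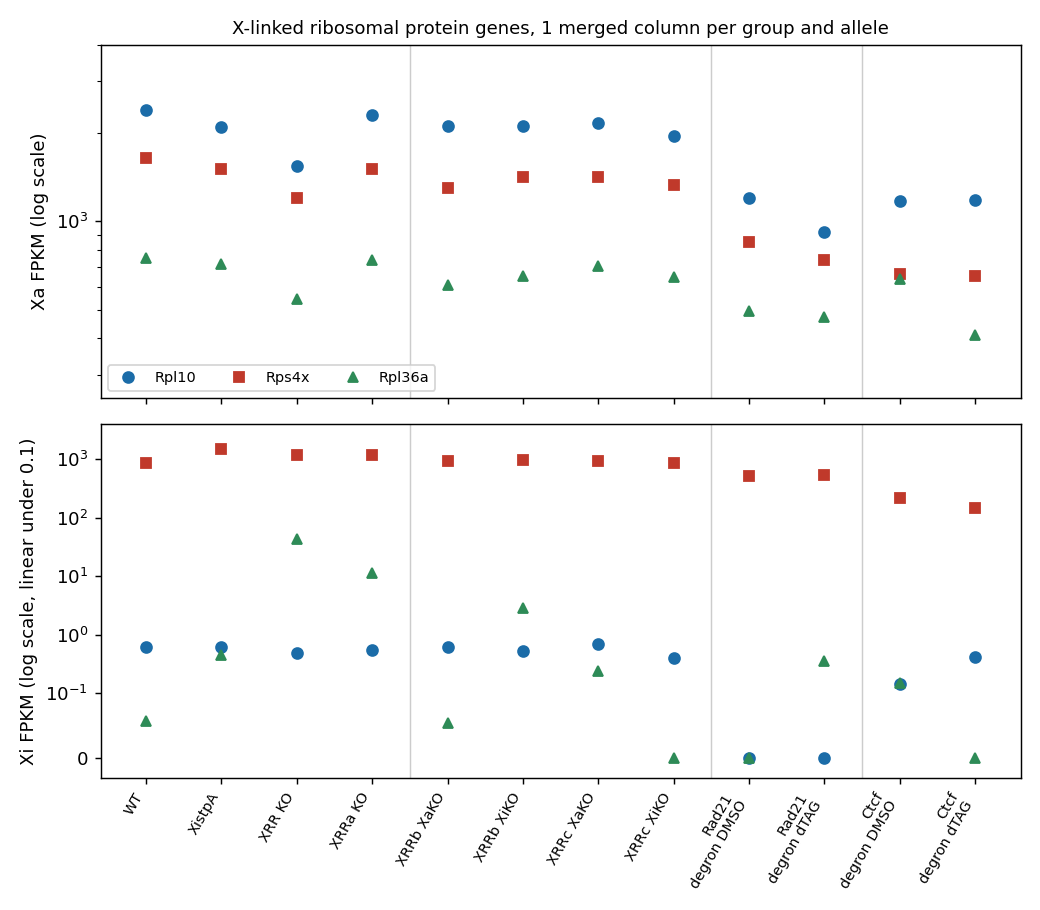
FPKM of Rpl10, Rps4x and Rpl36a on Xa (upper plot, log scale) and Xi (lower plot, log scale, linear under 0.1), 1 merged value per group, with grey lines between tables. On Xi, Rps4x lies between 147 and 1481 FPKM in every group, while Rpl10 stays under 1 FPKM and Rpl36a reaches 43.4 FPKM in XRR KO.

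On Xi the 3 genes parted. Rpl10 was close to 0 everywhere. Its Xi level was 0.605 FPKM in WT, 0.607 in XistpA, 0.494 in XRR KO and 0.545 in XRRa KO. It was 0.617, 0.515, 0.693 and 0.400 FPKM in XRRb XaKO, XRRb XiKO, XRRc XaKO and XRRc XiKO. It was listed at 0 in both Rad21 groups, and was 0.144 and 0.418 FPKM in the Ctcf degron cells with DMSO and dTAG. The Xi share of Rpl10 never passed 0.0352%, also in XistpA and XRR KO, the groups with the highest summed Xi shares. In the 10 groups where Xi was above 0, Xa exceeded Xi by 2839 to 8162 times.

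Rps4x was expressed from Xi in every group, at levels that made it the most abundant gene there in 11 groups and second in the Ctcf degron cells with dTAG. Its Xi level was 876 FPKM in WT, 1481 in XistpA, 1161 in XRR KO and 1168 in XRRa KO. It was 938 in XRRb XaKO, 975 in XRRb XiKO, 942 in XRRc XaKO and 875 in XRRc XiKO. It was 524 and 541 FPKM with DMSO and dTAG in the Rad21 degron cells, and 213 and 147 in the Ctcf degron cells. The Xi level of Rps4x therefore lay well above 0 in all 5 reference groups (WT, both XaKO groups and both DMSO groups), although the mouse gene is known as one that is silenced. How much of these values came from copies or from reads given to the wrong allele was not tested.

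As a share, the order of the groups ran from XistpA at 49.6% and XRR KO at 49.1%, where both alleles gave nearly the same amount, through XRRa KO at 43.6% and Rad21 degron with dTAG at 42.4%. The shares of XRRb XaKO, XRRb XiKO, XRRc XaKO and XRRc XiKO were 41.9%, 40.9%, 39.9% and 39.7%, a span of 2.11 points. Rad21 degron with DMSO followed at 38.1%, WT at 34.8%, Ctcf degron with DMSO at 24.3% and Ctcf degron with dTAG at 18.3%. The 5 reference groups alone ranged over 17.5 points, so neighbours in this order cannot be set apart. XistpA, XRR KO, XRRa KO and Rad21 degron with dTAG lay above all 5 reference groups, and Ctcf degron with dTAG lay below them. Rad21 degron with dTAG was next in order to the reference group XRRb XaKO, at 42.4% and 41.9%. Ctcf degron with dTAG was next to its DMSO group, so neither is set apart from the reference groups.

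Rpl36a was nearly silent on Xi in most groups and higher in a few. Its Xi level was 0.0570 FPKM in WT, 0.446 in XistpA, 43.4 in XRR KO and 11.1 in XRRa KO. It was 0.0539 in XRRb XaKO, 2.91 in XRRb XiKO and 0.242 in XRRc XaKO, and was listed at 0 in XRRc XiKO. In the Rad21 degron cells it was listed at 0 with DMSO and was 0.360 FPKM with dTAG, and in the Ctcf degron cells it was 0.147 FPKM with DMSO and listed at 0 with dTAG. XRR KO and XRRa KO were the highest of the WT table and XRRb XiKO of its own. Their Xi shares were 7.39%, 1.48% and 0.443%, so that even in XRR KO most Rpl36a RNA came from Xa. The highest share among the other 9 groups was 0.0763%, in Rad21 degron with dTAG.

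The members with an identical copy elsewhere, Rpl10 and Rpl36a, were near 0 on Xi in most groups, and Rps4x, with no identical copy, was at a high Xi share. In WT, Rpl10 ranked 35 and Rpl36a 61 of 270 tested genes by Xi level. By Xi share, without Xist and Tsix, they ranked 88 and 90. Among the other tested genes with a near-identical copy, the WT Xi level was 0.504 FPKM for Gm5643, 0.352 for the glycolytic gene Pgk1 and 0.0744 for Ndufb11, and Acot9, Atg4a, Plp2 and Uxt were listed at 0. The part of reads from copies in the Xi values was not tested.

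In XistpA against WT, 0 of the 3 members rose or fell on Xi, where 13.7% of all 270 tested genes did. The Xi change was 0.00 for Rpl10, 0.76 for Rps4x and 0.76 for Rpl36a, beside a median of 0.00 over all genes. From the highest, Rps4x ranked 50 and Rpl36a 49 of 270 genes, and the Rpl36a values were 0.0570 and 0.446 FPKM. On Xa 0 of 3 rose or fell, against 4.44% of all genes, and their changes were −0.19, −0.12 and −0.07. The share of Rps4x was 14.8 points higher in XistpA. Xist, the RNA that coats Xi, fell by 5.00 on the log2 scale on Xi in this comparison.

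In XRR KO against WT, Rpl36a rose on Xi by 6.30 on the log2 scale, the highest of 270 genes. Its Xi share there, 7.39%, ranked only 64 among the tested genes without Xist and Tsix, while its Xa level ranked 3. Rpl36a was the 1 member of 3 that rose or fell, where 17% of all genes did and 15.9% rose. Rps4x changed by 0.41 and Rpl10 by −0.15 on Xi. On Xa 0 of 3 members rose or fell, against 4.81% of all genes. The Xa changes were −0.62 for Rpl10, −0.44 for Rps4x and −0.47 for Rpl36a, beside a median of −0.19, so all 3 lay below the median gene. As a part of all Xa FPKM the 3 genes were nearly level, at 34.3% in WT and 33.8% in XRR KO. Of all genes on Xa, 3 rose and 10 fell, or 6 and 7 with the columns scaled to equal median Xa FPKM. XRR KO merges 2 clones, and whether 1 clone carries the Rpl36a value cannot be told apart from both doing so. Xist fell by 3.25 on the log2 scale on Xi.

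In XRRa KO against WT, Rpl36a rose on Xi by 4.38, again the highest of 270 genes, and it was the 1 member of 3 that rose or fell, where 7.04% of all genes did and 5.93% rose. The Xi share of Rpl36a in XRRa KO, 1.48%, ranked 62 among the tested genes without Xist and Tsix. Rps4x changed by 0.42 and Rpl10 by −0.08 on Xi, and the share of Rps4x was 8.75 points higher. On Xa 0 of 3 rose or fell, against 0.741% of all genes, and the changes were −0.05, −0.11 and −0.03 for Rpl10, Rps4x and Rpl36a. The Xi change of Xist was −0.94. The comparisons with WT share the WT column.

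Set against XRRa KO, XRR KO had a higher Xi level of Rpl36a by 1.92, the 19th highest of 270 genes. This was 1 of 3 members, where 14.4% of all genes rose or fell and 12.6% rose. Rps4x was level on Xi, with a change of −0.01, while its share was 5.49 points higher in XRR KO with an Xa change of −0.33. On Xa 0 of 3 rose or fell, against 5.56% of all genes, and the median gene changed by −0.24. Relative to it, the Xa changes were −0.33 for Rpl10, −0.09 for Rps4x and −0.20 for Rpl36a, and the Xi change of Rps4x turned to 0.23. Of all genes on Xa, 4 rose and 11 fell, or 8 and 7 with the columns scaled.

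In XRRb XiKO against XRRb XaKO, Rpl36a rose on Xi by 2.62, the second highest of 261 genes, and was the 1 member of 3 that rose or fell, where 1.92% of all genes did, all upward. Rps4x changed by 0.05 and Rpl10 by −0.14. In XRRc XiKO against XRRc XaKO, 0 of 3 members rose or fell on Xi, against 2.3% of all genes. The changes were −0.41 for Rpl10, −0.11 for Rps4x and −0.57 for Rpl36a. On Xa 0 of 3 passed in either pair, where 3.07% of all genes did in XRRb and 2.3% in XRRc. These groups hold 2 samples each, and the Rpl36a values behind the XRRb change are 2.91 and 0.0539 FPKM.

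With dTAG against DMSO in the Rad21 degron cells, 0 of 3 members rose or fell on Xi, against 7.29% of 247 genes, and 0 of 3 on Xa, against 21.5%. The Xi changes were 0.00 for Rpl10, 0.05 for Rps4x and 0.78 for Rpl36a. The Xa changes were −0.38, −0.21 and −0.07, beside a median of −0.26. Relative to that median they were −0.12 for Rpl10, 0.05 for Rps4x and 0.19 for Rpl36a, and with the columns scaled to equal median Xa FPKM they were 0.03, 0.21 and 0.35, so the direction of each depends on the scaling. Of all genes on Xi, 10 rose and 8 fell, or 14 and 5 with the columns scaled. The share of Rps4x was 4.24 points higher with dTAG.

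In the Ctcf degron cells 0 of 3 members rose or fell on Xi, against 0.722% of 277 genes, and 0 of 3 on Xa, against 6.14%. On Xi Rps4x changed by −0.54, the 8th lowest of 277 genes, Rpl10 by 0.51 and Rpl36a by −0.37. On Xa the changes were 0.01 for Rpl10, −0.02 for Rps4x and −0.63 for Rpl36a. Rpl36a on Xa was the 4th lowest of 277 genes, in a pair whose median gene was 0.23 higher with dTAG. Relative to that median the Xa changes were −0.22 for Rpl10, −0.25 for Rps4x and −0.86 for Rpl36a. The share of Rps4x changed by −5.99 points with dTAG.

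**Figure D2:**
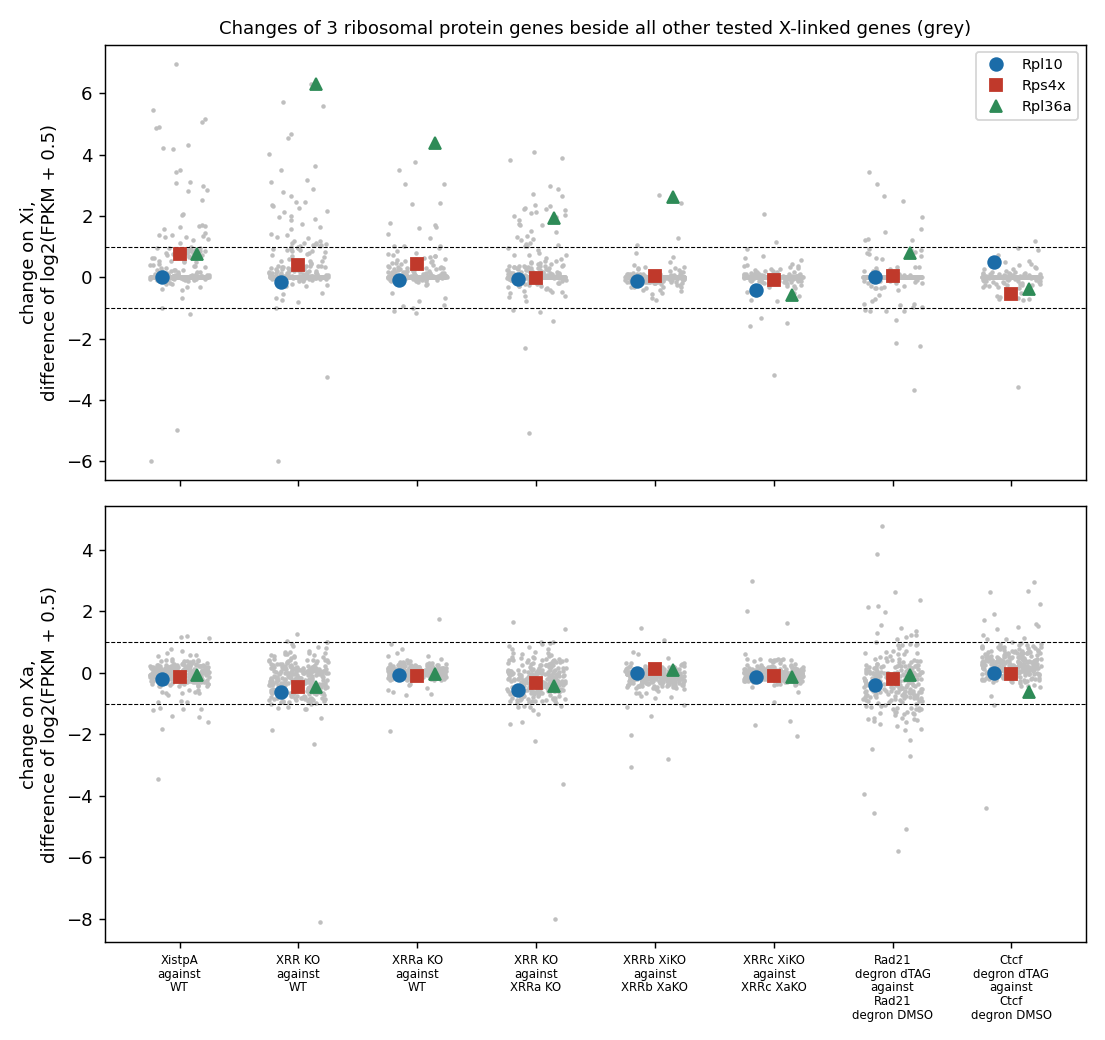
Change of each member on Xi (upper plot) and Xa (lower plot) in 8 comparisons, as a difference of log2(FPKM + 0.5), with all other tested genes in grey and dashed lines at a change of 1 in either direction. Rpl36a lies above the upper line on Xi in 4 comparisons, and no member passes either line on Xa.

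Rps4x was set beside the 23 other tested genes that had an Xi share of 10% or more in all 5 reference groups. Their median share was 31.7% in WT, 48.2% in XistpA, 48.4% in XRR KO and 40.4% in XRRa KO. It was 36.9%, 37.9%, 34.0% and 36.5% in XRRb XaKO, XRRb XiKO, XRRc XaKO and XRRc XiKO. It was 33.6% and 46.2% in the Rad21 degron cells with DMSO and dTAG, and 27.6% and 26.4% in the Ctcf degron cells. Rps4x lay above their median in 9 groups and below it in Rad21 degron with dTAG and in both Ctcf groups. In the Ctcf degron cells, 20 of the 23 had a higher share than Rps4x with dTAG and 13 already with DMSO, where 9 did in WT.

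The genes whose Xi share was most like that of Rps4x over the 12 groups, among 190 genes, were Cstf2, which encodes a factor of mRNA 3′ end cleavage, with a Pearson r of 0.95, Mmgt1 with 0.95 and the centromere protein gene Cenpi with 0.93. The 23 genes above had a median r of 0.78 with Rps4x, and 0.61 over the 253 pairs among themselves. Without XistpA and XRR KO the values were 0.93, 0.93 and 0.91. These are descriptions over 12 merged columns, and groups of 1 table share a normalization. For Rpl10 the most alike were Bcap31 at 0.59 and Flna at 0.54, on shares so close to 0 that nothing is read from them.

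**Figure D3:**
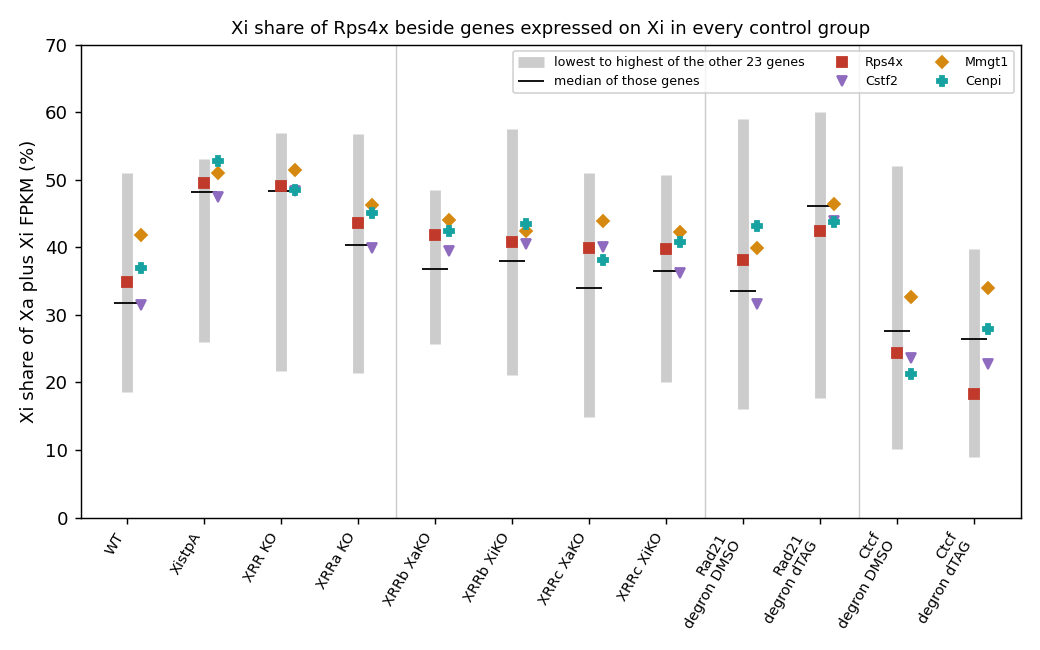
Xi share of Rps4x (red squares) by group, in percent of Xa plus Xi FPKM, beside its 3 most alike genes and the range (grey bars) and median (black lines) of the 23 other genes at 10% or more in all 5 reference groups. Rps4x runs from 18.3% in Ctcf degron with dTAG to 49.6% in XistpA and lies inside the range of the other genes in every group.

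The nearest tested neighbours of Rps4x on the X were taken by RefSeq order (GRCm38). Ercc6l, which encodes a DNA translocase of mitosis, had an Xi share of 26.6% in WT, 43.9% in XistpA and 44.0% in XRR KO. Cited1, a transcriptional co-regulator gene on the other side, had 4.95% in WT, 47.9% in XistpA and 45.3% in XRR KO. In XRRa KO, Ercc6l was at 35.8% and Cited1 at 19.4%, beside 43.6% for Rps4x. In the Ctcf degron cells Ercc6l was at 9.53% with DMSO and 24.8% with dTAG, the opposite order to Rps4x. These shares rest on Xi levels of 0.451 and 1.27 FPKM, a change of 0.90 that is under the threshold. Cited1 was at 4.63% with DMSO and 1.69% with dTAG, the same order as Rps4x. The next genes out, Ogt and Nap1l2, had no such Xi expression: Ogt was at most at 1.85%, in Rad21 degron with dTAG, and Nap1l2 had a listed Xi level of 0 throughout. Of the neighbours of Rpl10, Emd and Taz were listed at 0 on Xi in all groups, and Dnase1l1 did not pass a share of 0.83%.

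Rpl36a lies between Timm8a1, for mitochondrial import, and Gla, for a lysosomal galactosidase. Gla had an Xi share of 2.13% in XRR KO and 0.71% in XRRa KO, from Xi levels of 0.105 and 0.068 FPKM, and was at or under 0.06% in the other groups. The next gene, Hnrnph2, for an RNA-binding protein, was listed at 0 on Xi except in XRR KO, where it was at 0.576 FPKM, a share of 2.48% and a rise of 1.11 over WT. Timm8a1 did not pass 0.11% in any group, and Cenpi, 2 tested genes away, was at 36.9% already in WT. The genes most like Rpl36a in share were Atp6ap1 at r = 0.998, 2210013O21Rik at 0.996 and Gla at 0.989. These rest on XRR KO and XRRa KO: by rank, Spearman's rho was 0.66, 0.66 and 0.67, and the XRR KO shares were 0.55%, 13.2% and 2.13%.

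**Figure D4:**
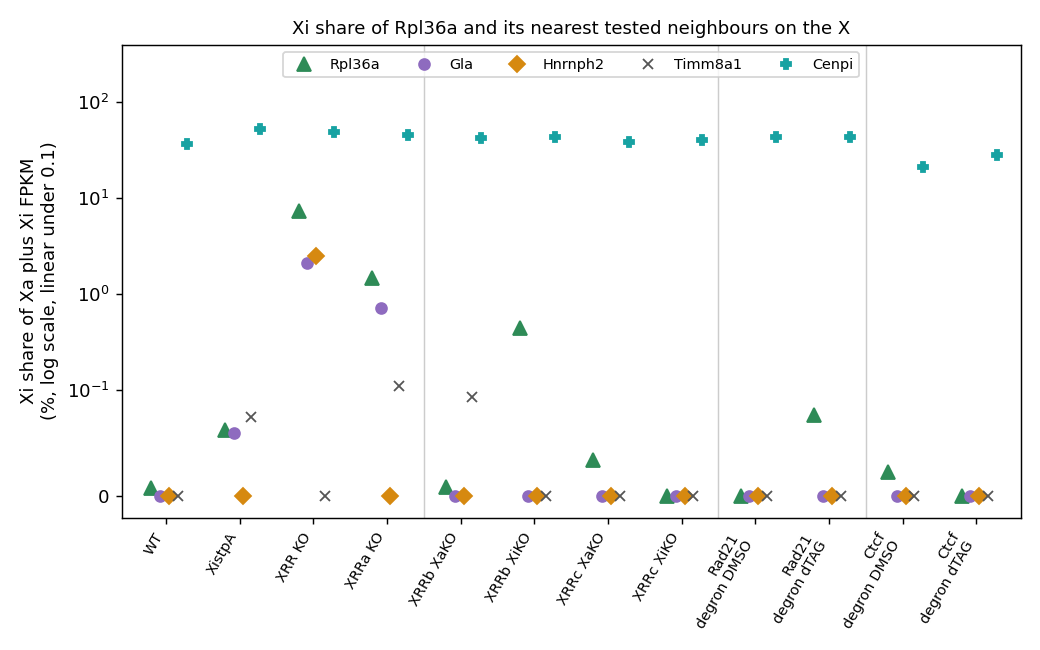
Xi share of Rpl36a and of 4 nearby tested genes by group, in percent on a log axis that is linear under 0.1. In XRR KO, Rpl36a at 7.39%, Hnrnph2 at 2.48% and Gla at 2.13% are all above 0, while Cenpi is above 10% in every group.

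Rps4x weighs on any sum over Xi. Over all tested genes except Xist and Tsix it made up 62.9% of the Xi FPKM in WT and between 30.6% and 65.5% over the groups. The summed Xi share in WT was 9.10% with Rps4x and 4.04% without it. It was 17.6% and 9.87% in XistpA, 18.9% and 11.5% in XRR KO, and 14.4% and 8.67% in XRRa KO. XRR KO was thus the highest either way. In the Rad21 degron cells the sum was 9.47% and 12.3% with DMSO and dTAG, and 3.90% and 5.66% without Rps4x. In the Ctcf degron cells it was 7.37% and 5.60%, and 5.21% and 4.29% without it. No group pair of a comparison changed its order of sums when Rps4x was left out.

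**Figure D5:**
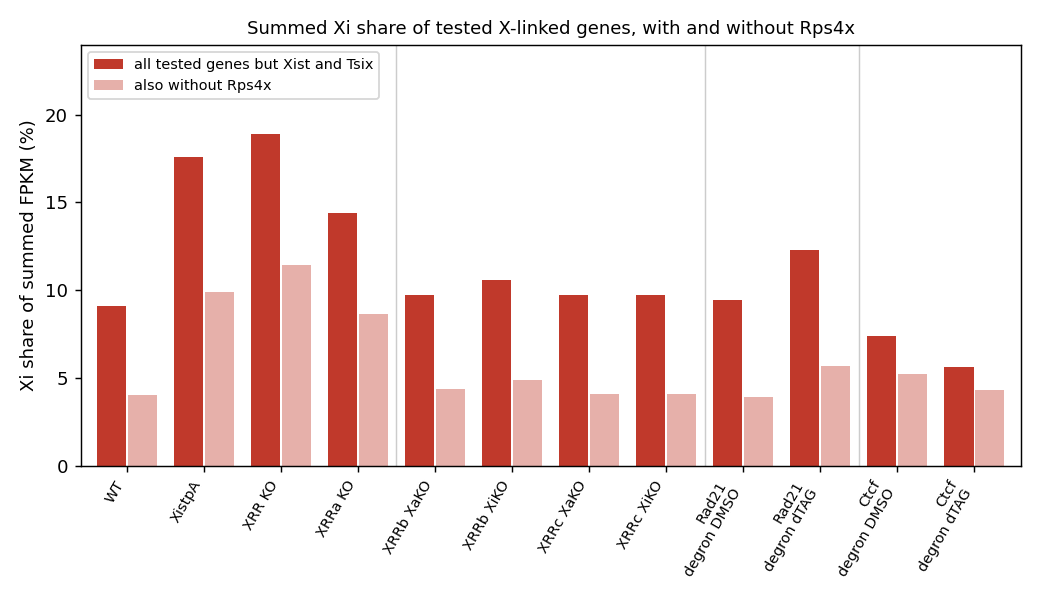
Xi share of the summed FPKM of tested X-linked genes without Xist and Tsix (dark bars) and also without Rps4x (light bars), in percent, by group. In WT the bar falls from 9.10% to 4.04%, and XRR KO is the highest with Rps4x (18.9%) and without it (11.5%).

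Of 26 genes at 100 FPKM or more on Xa in WT, 9 were listed at 0 on Xi, 8 more had a share under 0.1%, and 3 had a share of 10% or more. Rps4x had the highest share of such genes in 9 groups, and Wbp5 did in XRRa KO and in both Ctcf groups.

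Other X-linked genes of translation and ribosome assembly, a list of 19 genes, were counted by the same threshold. On Xi in XistpA, 4 of 17 tested genes rose, against 12.2% of all genes. They were Las1l (1.66), for a ribosome assembly factor, Upf3b (1.34), for a factor of nonsense-mediated decay, Utp14a (1.30), for processing of ribosomal RNA, and Trmt2b (1.20). In XRR KO, 3 of 17 rose, against 15.9%, with Las1l at 1.98, Upf3b at 1.29 and Utp14a at 1.12. Ftsj1, for a tRNA methyltransferase, fell there by 1.02, a call lost with the columns scaled to equal median Xa FPKM. None of 17 passed in XRRa KO against WT, and in XRR KO against XRRa KO Las1l (1.71) and Upf3b (1.21) rose and Ftsj1 (−1.06) fell. That fall of Ftsj1 was also lost with the columns scaled. On Xa 1 of 17 fell in XistpA, Nkrf (−3.44, to a listed 0), against 4.44% of all genes that rose or fell. In XRR KO 1 of 17 fell on Xa, Lage3, from 76.7 to 38.0 FPKM, against 4.81%. The Lage3 call was lost with the columns scaled, and also with changes taken relative to the median Xa change. On Xi with dTAG in the Rad21 degron cells, Upf3b rose by 3.06 from a listed 0 and Las1l fell by 1.09, which is 2 of 15, against 7.29%. With the columns scaled, 2 of 15 rose and 0 fell, so the Las1l call was lost. On Xa with dTAG in the Rad21 degron cells, 6 of 15 list genes fell, against 15% of all genes, the lowest being Dkc1 at −2.69, for the pseudouridine synthase of ribosomal RNA. The others were Las1l (−1.85), Utp14a (−1.49), Ftsj1 (−1.33), Ddx3x (−1.16) and Gnl3l (−1.03), and the list median was −0.89 beside −0.26 for all genes. In that comparison, 16 of 247 genes rose and 37 fell, or 26 and 19 with the columns scaled to equal median Xa FPKM, which left 3 list genes. Of the ribosomal protein genes, 0 of 3 were among those that fell under either scaling.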

How the data were processed

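RNA of 32 samples in 12 groups was measured. The authors deposited 4 tables of FPKM values (fragment counts scaled by transcript length and library total) for X-linked genes. Per the file headers, these have 24 columns, each merged over the samples of a group and giving Xa or Xi. Trim Galore (0.6.4), StringTie (2.1.1), HISAT2 (2.2.0) and the build mm9 appear in the submitters' processing notes. The assignment of reads to alleles and the treatment of multiply mapped reads are not described in the labels or notes. The columns of the Ctcf table name only the treatment and were matched to its samples by elimination.

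Members and gene lists were chosen with earlier results of these data known. Genes were tested where the mean of Xa plus Xi over a table's groups was at least 1 FPKM (270, 261, 247 and 277 genes). Changes were differences of log2(FPKM + 0.5), which understates changes of low genes, with 1 as the threshold. The planned limma test could not be run on merged values. An exact 0 may be a failed estimate. The genes named were the members, the nearest tested neighbour on each side, Xist, the 3 most alike in Xi share by Pearson's r (1 of them is not reported here), the listed translation genes past the threshold, and tested genes with near-identical copies. Ogt, Nap1l2, Taz, Hnrnph2 and Wbp5 were chosen after their values were seen. RefSeq (GRCm38) gave gene order for 232 genes.

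Copies were sought in GENCODE M21 transcripts (GRCm38) with minimap2 2.31 (95% identity over 50% of the transcript) and, for coding sequences, blastn 2.17.0 with global alignment in biopython 1.88, an alternative added after the data were seen. Scripts ran in python 3.11.15 with numpy 2.4.6 and pandas 2.3.3 and were tested on simulated data. Other pseudocounts, filters, scalings and share thresholds were tried. Protein sequences were not used here.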

Additional observations from a re-analysis of the deposited data

Results flagged for a closer look

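3 values moved in opposite directions between comparisons of the same form. These comparisons do not repeat each other: the degron lines differ in the tagged protein, and XRRb and XRRc are different labels. With 1 merged value per group, none of these differences was tested.

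The Xi share of Rps4x was 4.24 points higher with dTAG than with DMSO in the Rad21 degron cells, and in the Ctcf degron cells it changed by −5.99 points. The DMSO groups of these lines themselves stood at 38.1% and 24.3%.

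The Xi level of Rpl36a changed by 0.78 on the log2 scale with dTAG in the Rad21 degron cells and by −0.37 in the Ctcf degron cells. Both changes lie between values of 0 and at most 0.360 FPKM.

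The Xi level of Rpl36a was higher by 2.62 in XRRb XiKO than in XRRb XaKO, and changed by −0.57 in XRRc XiKO against XRRc XaKO. The XRRb values were 2.91 and 0.0539 FPKM, and the XRRc values were 0 and 0.242 FPKM.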

How the results depend on the processing

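No paired analysis was possible because each group has 1 merged column, and for the same reason no sample could be left out. Of 288 member changes recomputed under other pseudocounts, filters and scalings, 282 stayed on their side of the threshold and 6 passed it. The sign differed in 14, each under 1 of the 2 scalings, for changes of at most 0.38 in size, and in 0 of the changes past the threshold. The calls of Rpl36a in XRR KO, XRRa KO and XRRb XiKO held under each. With a pseudocount of 0.1, members past the threshold on Xi numbered 1 instead of 0 in XistpA (Rpl36a, 1.80), 1 instead of 0 in XRRc (Rpl36a, −1.77), 1 instead of 0 in the Rad21 line (also Rpl36a) and 2 instead of 0 in the Ctcf line (Rpl10 at 1.08 and Rpl36a at −1.30). All of these are changes between Xi values under 1 FPKM. Centred on the median Xa change, Rpl36a in the Rad21 line was at 1.04, which made 1 instead of 0. At a share threshold of 5%, Rpl36a had 1 group past it instead of 0.

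Counts of all genes past the threshold moved by over 1.5 times in 23 of 96 cases. On Xi with a pseudocount of 0.1 they were 64 instead of 37 in XistpA, 75 instead of 46 in XRR KO, 39 instead of 19 in XRRa KO, 65 instead of 39 in XRR KO against XRRa KO, 16 instead of 5 in XRRb, 19 instead of 6 in XRRc, 34 instead of 18 in Rad21 and 12 instead of 2 in Ctcf. With a pseudocount of 1 they were 11 in XRRa KO and in Rad21, 3 in XRRb and 1 in Ctcf, and centring gave 1 in Ctcf. On Xa with a filter at 5 FPKM they were 2 instead of 12, 8 instead of 13, 0 instead of 2, 9 instead of 15, 2 instead of 8, 3 instead of 6, 34 instead of 53 and 6 instead of 17, in the order above. With no filter they were 6 in XRRa KO and 12 in XRRc. The number of genes with a near-identical copy was 16 at 90% identity instead of 10, and Rpl39 had 4 copies by coding sequence instead of 0. The cause was not tested. Depth is unknown, so no limit can be set for the low Xi values of Rpl10 and Rpl36a.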
